A study of Mus musculus with 4 samples.

Results

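The genes described here are the MAP kinase phosphatases Dusp1, Dusp2, Dusp4, Dusp5, Dusp6, Dusp7, Dusp8, Dusp9, Dusp10 and Dusp16. They were taken from the deposited array values by platform gene symbol, and all 10 were found, each with 1 probe set, among 22206 gene probe sets. The family had been chosen by its TCQA-against-control log2 differences on these same 4 arrays, the low Dusp1 signal among them, so those differences, and the SEs, intervals and counts of calls given with them, describe the arrays and are not a test of the family. The RNA was cortical, from male mice of the senescence-prone strain SAMP8, whose memory declines early in life. The TCQA group was dosed orally with 5 mg/kg daily of TCQA, which the labels give as an abbreviation, and the control group with MilliQ water. Dosing began at 11 months of age and lasted 1 month, after 4 months of single housing that began at 7 months and that both groups shared, and no normally ageing strain was compared. Each group had 2 Clariom S arrays, and the labels leave unsaid whether an array holds 1 mouse or several and whether replicates are separate animals, so p-values measure only the spread between these arrays, which may be technical. Values are log2 signals, and a difference of 1 is a 2-fold change.

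MAP kinases (ERK, JNK and p38) carry signals from the cell surface to the nucleus and are switched on when a threonine and a tyrosine in their activation loop are phosphorylated. MAP kinase phosphatases are dual-specificity enzymes that remove both phosphates and so switch the kinases off. Several of them are themselves early response genes of the same signal, which makes them negative feedback regulators. In neurons Dusp1 and its relatives are transcribed when synaptic activity and calcium entry rise.

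The TCQA arrays had less Dusp1 mRNA than the control arrays, by 4.18-fold, and the other 9 phosphatases differed by 1.58-fold or less in either direction. Group means were lower with TCQA for Dusp1, Dusp2, Dusp5, Dusp6, Dusp8 and Dusp16, and higher for Dusp4, Dusp7, Dusp9 and Dusp10, so 6 of 10 were lower, beside 48.9% of all gene probe sets. For Dusp1, Dusp2, Dusp6 and Dusp8 both TCQA arrays lay below both control arrays, which makes 4 of 10 without overlap, beside 36.6% of all gene probe sets in either direction. The median difference over the 10 genes was -0.32, against 0.01 over all gene probe sets, and it was -0.18 without Dusp1. It was -0.07 without TCQA replicate 2 and -0.11 without control replicate 1.

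**Figure D1:**
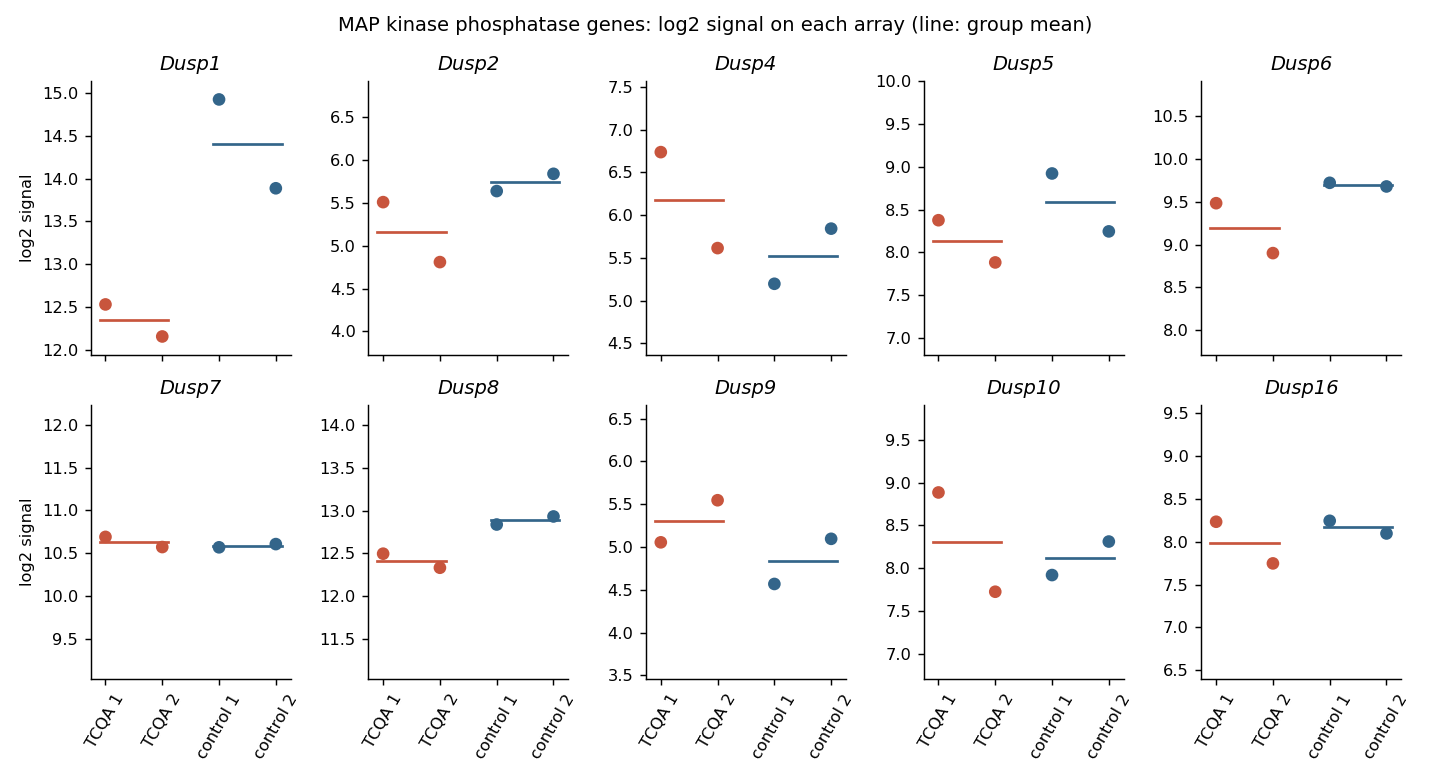
Log2 signal of each of the 10 phosphatase genes on the 4 arrays, with TCQA in red, control in blue and a line at each group mean. Every panel spans the same number of log2 units, so that the 2.77 between the lowest and the highest Dusp1 array can be set against 0.12 for Dusp7.

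Dusp1 encodes the prototype of the family, a nuclear phosphatase of p38, JNK and ERK that is induced within minutes in many cell types. Its log2 signals were 12.53 and 12.15 on the TCQA arrays and 14.92 and 13.89 on the control arrays. The lowest control array was 1.36 above the highest TCQA array. The TCQA mean was 12.34 ± 0.26 and the control mean 14.41 ± 0.73 (SD, n = 2). The difference was -2.06 (SE 0.36), the fifth lowest of all 22206. The control arrays differed from each other by 1.04, a gap that 1.42% of gene probe sets exceeded. Leaving out control replicate 1 gave -1.54 and leaving out control replicate 2 gave -2.58. In cortex tissue, fewer cells of a type and less RNA per cell cannot be told apart for any of these genes.

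Promoter sequence was read for motifs of factors that act on early genes. RefSeq sequence was given for 8 of the 10 genes, and the 250 bases before the transcription start were searched on both strands for the cAMP response element TGACGTCA, to which the activity-regulated factor CREB binds, and for its core TGACGT, which lies within it on both strands. The CArG box, the site of serum response factor, and the AP-1 site TGANTCA were searched in the same way. Dusp1 and Dusp8 held the whole element, which 1.55% of 32851 windows of this length held, and Dusp5 held the core without the whole element. The core, within the whole element or apart from it, was present in 6.47%. Bases G and C made up 68.4% of the Dusp1 window and 71.6% of the Dusp8 window, beside a median of 52.4% over all windows. The shares over all windows are thus not matched for base content. The windows below, in build GRCm38.p6, belong to the gene with the largest difference (Dusp1, chr17:26508473-26508722, minus strand), to the JNK and p38 phosphatase with the same element (Dusp8, chr7:142095285-142095534, minus strand), and to a gene with a core and CArG boxes (Dusp5, chr19:53528895-53529144, plus strand). Dusp2 and Dusp6 also had TCQA arrays below their control arrays, while none of these 4 motifs was found in their windows. For this pair the window of Dusp6 (chr10:99262981-99263230, plus strand) is shown. Each runs 5′ to 3′ on the gene's strand up to the base before the start, with matches in capitals.
Dusp1: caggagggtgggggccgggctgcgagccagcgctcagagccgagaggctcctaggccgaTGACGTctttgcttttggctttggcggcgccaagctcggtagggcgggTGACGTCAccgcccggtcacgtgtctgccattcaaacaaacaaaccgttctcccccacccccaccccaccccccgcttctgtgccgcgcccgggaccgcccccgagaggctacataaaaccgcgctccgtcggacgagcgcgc
Dusp8: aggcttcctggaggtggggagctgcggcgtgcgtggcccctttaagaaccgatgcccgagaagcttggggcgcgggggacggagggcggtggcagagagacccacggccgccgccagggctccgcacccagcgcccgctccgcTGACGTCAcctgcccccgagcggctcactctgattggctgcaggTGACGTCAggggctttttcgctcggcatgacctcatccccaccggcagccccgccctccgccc
Dusp5: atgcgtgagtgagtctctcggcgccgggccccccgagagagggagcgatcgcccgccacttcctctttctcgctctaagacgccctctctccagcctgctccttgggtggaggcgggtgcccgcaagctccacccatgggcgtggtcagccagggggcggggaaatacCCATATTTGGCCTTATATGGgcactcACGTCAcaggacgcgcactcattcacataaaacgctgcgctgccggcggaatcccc
Dusp6: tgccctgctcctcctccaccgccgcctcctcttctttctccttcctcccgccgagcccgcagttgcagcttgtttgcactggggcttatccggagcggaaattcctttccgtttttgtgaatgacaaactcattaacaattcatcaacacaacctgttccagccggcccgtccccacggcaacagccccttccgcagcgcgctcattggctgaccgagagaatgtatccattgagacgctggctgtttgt

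In Dusp1 the whole element lay 143 to 136 bases before the start, and a further core lay at 191 to 186. Dusp8 held 2 copies, at 107 to 100 and at 63 to 56. In Dusp5 there were 2 adjoining CArG boxes at 82 to 73 and 72 to 63, and a core at 56 to 51. At least 1 CArG box was found in 1.47% of windows. The AP-1 motif was found in none of the 8 windows and in 6.75% of all. Over the 356 measured genes with the whole element in a window the median difference was -0.01, beside 0.01 over all 15691 measured genes with a window. Searched as well were the E-box CACGTG, held by Dusp1 and Dusp2 and by 6.02% of windows, CCAAT, held by Dusp6, Dusp7, Dusp8, Dusp10 and Dusp16 and by 33.8%, and TATAAA, held by none of the 8 and by 12.4%. A match is a description of the sequence, and no binding was measured here.

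Among the other inducible nuclear phosphatases, Dusp5, which acts on ERK alone, had log2 signals of 8.38 and 7.88 on the TCQA arrays and 8.92 and 8.25 on the control arrays. TCQA replicate 1 lay above control replicate 2, so the groups overlapped. The difference was -0.45 (SE 0.29), and it ran from -0.79 without control replicate 2 to -0.12 without control replicate 1, the highest array for Dusp5 as for Dusp1. Dusp2, known from activated immune cells, was at 5.51 and 4.81 with TCQA and at 5.64 and 5.84 in control. All 4 values fell under the negative control median, which ranged from 7.17 to 7.32 over the arrays, so the difference of -0.58 (SE 0.27) is between dim signals. The median of all gene probe sets was 7.12 to 7.17, so this cut lies near the middle of all genes and is not a floor. The Dusp2 difference was -0.93 without TCQA replicate 1 and -0.23 without TCQA replicate 2. Dusp4, a nuclear phosphatase of ERK and JNK, was as dim, at 6.74 and 5.61 with TCQA and at 5.20 and 5.84 in control. Its groups overlapped, and the difference of 0.66 (SE 0.40) came down to 0.09 without TCQA replicate 1, its highest array, and was 1.22 without TCQA replicate 2.

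The cytoplasmic phosphatases of ERK are Dusp6, Dusp7 and Dusp9. Dusp6, the classical feedback inhibitor of growth factor signals through ERK, was at 9.48 and 8.90 with TCQA and at 9.72 and 9.68 in control. Its control arrays were 0.04 apart and its TCQA arrays 0.58 apart, with no overlap between the groups. The difference was -0.51 (SE 0.24), -0.80 without TCQA replicate 1 and -0.22 without TCQA replicate 2. Dusp7, its closest relative in substrate and location, was at 10.69 and 10.57 with TCQA and at 10.57 and 10.61 in control. These 4 values spanned 0.12, the narrowest range of the 10 genes, and the difference of 0.04 (SE 0.17) had a 95% interval of -0.38 to 0.46. Dusp9, known for its role in the placenta, was below the median of the negative controls on every array, at 5.05 and 5.55 with TCQA and at 4.57 and 5.10 in control. Its groups overlapped, with a difference of 0.47 (SE 0.27) that ran from 0.20 without control replicate 1 to 0.73 without control replicate 2.

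Dusp8, Dusp10 and Dusp16 act mainly on JNK and p38. Dusp8 was at 12.50 and 12.33 with TCQA and at 12.84 and 12.93 in control, a 1.39-fold lower mean (difference -0.47, SE 0.18). The gap between the groups, 0.34, was wider than the 0.16 between its TCQA arrays or the 0.09 between its control arrays, and the difference stayed between -0.55 and -0.39 when each array was left out in turn. Dusp10 was at 8.89 and 7.73 with TCQA and at 7.92 and 8.31 in control. Its TCQA arrays stood 1.16 apart, the widest gap of the family in that group, with both control arrays between them. The difference of 0.19 (SE 0.39) became -0.39 when TCQA replicate 1 was left out, -0.01 without control replicate 1, and 0.77 when TCQA replicate 2 was left out. Dusp16 was at 8.23 and 7.75 with TCQA and at 8.25 and 8.10 in control, and the difference of -0.18 (SE 0.22) ran from -0.42 without TCQA replicate 1 to 0.06 without TCQA replicate 2.

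**Figure D2:**
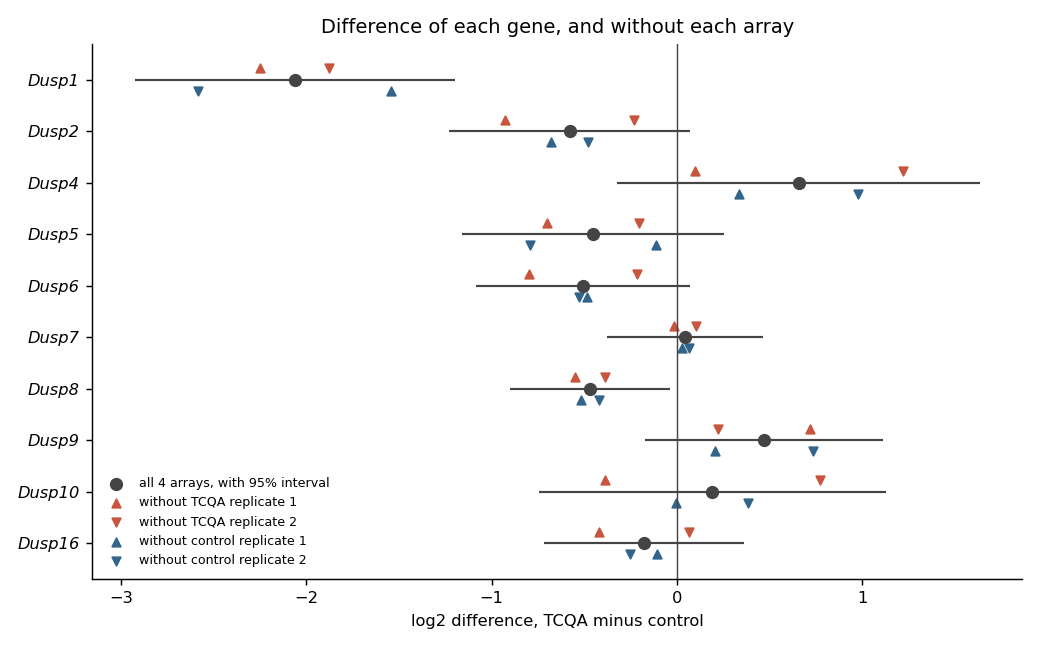
Log2 difference of each phosphatase gene, TCQA minus control, with its 95% interval (black) and the values without each array in turn (triangles). Dusp1 stands at -2.06 and between -2.58 and -1.54 without an array, while the triangles of Dusp7, Dusp10 and Dusp16 fall on both sides of 0.

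The depositors' criterion asks for a fold change over 2 and a p under 0.05 before adjustment. Of the 10 genes 1 met it, Dusp1, and 0.374% of all gene probe sets met it (0.171% in the lower direction). The choice of the family used this contrast, so nothing is read from that count, which was 0 when limma was run without empirical Bayes moderation. Without TCQA replicate 2 the dim gene Dusp4 met it too, in a fit where 291 gene probe sets did, against 83 with all 4 arrays. After Benjamini-Hochberg adjustment 0 of 22206 gene probe sets passed limma, and 1386 (6.24%) had an unadjusted p under 0.05. Both TCQA arrays lay below both control arrays in 4 of the 10 genes, beside 17.8% of all gene probe sets, and above them in 0 of the 10, beside 18.9%. With 2 arrays a group the smallest two-sided p of an exact permutation test is 0.333, so no single gene can pass such a test.

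Within the TCQA group the phosphatases differed between the arrays mostly in a common direction. The family had been chosen on values of these same arrays. TCQA replicate 1 was above TCQA replicate 2 in 9 of the 10, with Dusp9 as the exception, while 50.3% of all gene probe sets were higher on that array. The differences, replicate 1 minus replicate 2, ran from -0.49 for Dusp9 to 1.12 for Dusp4 and 1.16 for Dusp10, where the median gap over all gene probe sets was 0.22. In the control group replicate 1 was the higher array in 4 of the 10, with 48.1% over all. Averaged over the 9 genes other than Dusp1, the log2 signal was 8.39 and 7.90 on the TCQA arrays and 8.18 and 8.29 on the control arrays. TCQA replicate 2 was thus the lowest array of this average, and TCQA replicate 1 the highest. The order within the TCQA group was not particular to the family. In lists described below, TCQA replicate 1 was above TCQA replicate 2 in 28 of 36 early genes and 14 of 19 transcription factors. It was so in 5 of 15 scaffold genes and 3 of 9 other phosphatases. Genes read on the same 2 arrays are not separate observations, so the 9 of 10 carries no test.

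Markers of cell types were read on the same arrays. Cortical excitatory neuron genes were present on all arrays, the vesicular glutamate transporter gene Slc17a7 at 16.39 and 16.03 with TCQA and at 16.68 and 16.38 in control. Over 10 such genes the mean log2 signal was 12.71 and 12.30 with TCQA and 12.83 and 12.63 in control. Of these genes 7 of 10 were lower with TCQA, beside 48.9% of all gene probe sets, with a median difference of -0.27. TCQA replicate 2 was below TCQA replicate 1 in 9 of 10, the order of the phosphatases within that group. The control order differed, with replicate 1 the higher control array in 8 of 10 of these genes and in 4 of 10 phosphatases. Meningeal fibroblast genes averaged 8.20 and 8.29 on the TCQA arrays and 7.35 and 7.99 on the control arrays. Of these, 10 of 10 had the higher mean with TCQA, beside 51.1% of all gene probe sets. Control replicate 1, the array with the most Dusp1, was the lowest for 8 of these 10. For 10 choroid plexus genes the means were 7.20 and 7.94 with TCQA and 6.41 and 8.32 in control, and the transthyretin gene Ttr was at 7.49 on control replicate 1 and at 16.42 on control replicate 2. Median differences of the other lists were 0.30 for inhibitory neurons, 0.21 for astrocytes, 0.13 for microglia and for endothelial cells, 0.21 for pericytes and smooth muscle, 0.03 for oligodendrocytes, 0.62 for thalamic neurons, -0.06 for striatal neurons, -0.03 for hippocampal neurons and -0.06 for blood cells. Of the 8 thalamic genes 6 had a higher mean with TCQA, beside 51.1% of all gene probe sets, and 2 a lower one. Calb2 and Zic1, 2 of the 8, met the criterion described above in the higher direction, beside 0.203% of all gene probe sets. Both TCQA arrays lay above both control arrays in 4 of the 8, beside 18.9% of all. The part of these tissue markers in the phosphatase values was not tested.

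The genes whose 4 values were closest to those of Dusp1 were early response genes for the most part. Each gene was centred on its own mean, and the Euclidean distance over the 4 arrays was taken for 10022 named genes at or above the median level of 7.14. The 5 nearest were Npas4, a transcription factor induced by neuronal activity (distance 0.23), Ccn1, a secreted matrix protein (0.36), Junb, an AP-1 subunit (0.41), Nr4a1, an orphan nuclear receptor (0.64), and Lingo2, a neuronal membrane protein (0.66). Npas4 was at 6.84 and 6.33 with TCQA and at 9.37 and 8.06 in control, so that its array order was that of Dusp1. Both TCQA values of Npas4 lay under the negative control median, and the gene reached the level of 7.14 through its control arrays. Within the family the gene closest to Dusp1 was Dusp5, at a distance of 1.63, and the closest pair was Dusp2 with Dusp6, at 0.20. Dusp4, with the second widest range of the family (1.54), was nearest to Gm10778 (0.26), a predicted gene, and then to Btbd35f4, Shisa3, Btbd35f20 and Btbd35f9, at 0.30 to 0.33. Btbd35f genes form a multicopy family whose copies the probes may not separate. Likeness over 4 arrays is a description and carries no test.

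**Figure D3:**
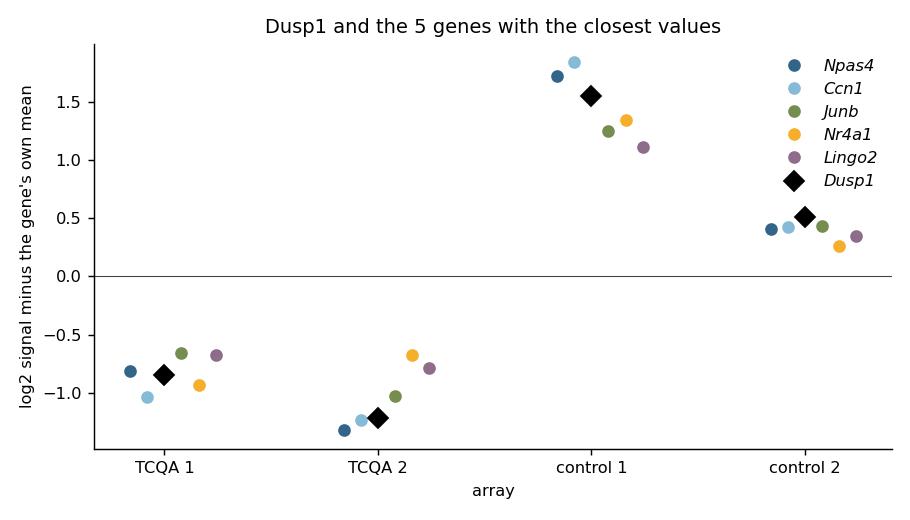
Log2 signal minus the gene's own mean over the 4 arrays for Dusp1 (black diamonds) and the 5 genes closest to it (coloured points, set side by side within each array). All 6 genes are highest on control replicate 1 and below their own mean on both TCQA arrays.

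The other genes of the pathway were read from lists written for it, with earlier results of these data known. The kinase cascade and its regulators had 142 measured genes, counting the transcription factors and the 21 atypical dual-specificity phosphatases described at the end. Of the 142, 0 met the criterion and 0 passed limma after adjustment over all genes. An unadjusted p under 0.05 was found for 8, 4 lower and 4 higher with TCQA, beside 6.24% of all gene probe sets (2.86% lower and 3.38% higher). The median difference of the 142 was -0.01. Among the MAP kinase genes themselves, 8 of 12 measured had a higher mean with TCQA, beside 51.1% of all gene probe sets. Of the 12, 6 had both TCQA arrays above both control arrays (18.9% of all gene probe sets). The list median was 0.32, with values of 0.22 to 0.29 without each array in turn. Mapk8, which encodes the kinase JNK1, was the gene of the list whose TCQA arrays both lay under its control arrays. Its TCQA mean was 9.91 ± 0.13 and its control mean 10.63 ± 0.32 (SD, n = 2). The difference was -0.72 (SE 0.22, limma adjusted p = 0.787). The neuronal JNK gene Mapk10 was at 16.53 and 16.36 with TCQA and at 15.93 and 16.17 in control (difference 0.40, SE 0.19). Mapk11, a p38 gene, differed by 0.50 (SE 0.22), Mapk7, the gene of ERK5, by 0.34 (SE 0.17), and Mapk14, the main p38 gene, by -0.03 (SE 0.19).

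Upstream, the kinases that phosphorylate MAP kinases had a median difference of 0.10 over 6 genes, and the tier above them -0.07 over 23. In that tier the mixed-lineage kinase gene Map3k9 differed by -0.57 (SE 0.18) and Map3k3 by -0.50 (SE 0.20). Ras and its regulators had a median of -0.03 over 21 genes, and the largest difference was that of Rasgrf1, a calcium-activated exchange factor of Ras in neurons, at 11.03 and 11.20 with TCQA and at 10.47 and 10.54 in control (difference 0.61, SE 0.18). Of the scaffold proteins, with a median of 0.02 over 15 genes, Mapk8ip1, which holds JNK and its activators together, differed by -0.44 (SE 0.29), and its groups overlapped. MAP kinase-activated kinases had a median of -0.09 over 7 genes, and other phosphatases that act on MAP kinases one of 0.01 over 9, among them Ptpn5, the striatum-enriched tyrosine phosphatase, at -0.11 (SE 0.20). None of the genes named here passed limma after adjustment, with adjusted p of 0.787 or higher.

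Sprouty and Spred proteins are feedback inhibitors that act on Ras and Raf. Their list, which also held Errfi1 and Rasd1, had a median of -0.02 over 9 genes. Spry2 was at 10.18 and 9.97 with TCQA and at 10.53 and 10.40 in control, a difference of -0.38 (SE 0.18). Errfi1, an inhibitor of the EGF receptor, differed by 0.35 (SE 0.19), with both TCQA arrays above both control arrays. Spry4, under the negative control median on all 4 arrays, differed by -0.29 (SE 0.23) with overlapping groups, and Spred1 by -0.02 (SE 0.18). Rasd1, a Ras-like protein that dexamethasone induces, was at 6.09 and 6.51 with TCQA and at 5.08 and 5.60 in control, all below the median of the negative controls, a difference of 0.96 (SE 0.25). For transcription factors that MAP kinases phosphorylate the median was -0.01 over 19 genes, with Jun, the JNK substrate of AP-1, at -0.54 (SE 0.19) and Myc, which was dim, at 0.55 (SE 0.20).

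Early genes that MAP kinase signalling switches on had the widest differences of the pathway. Of 36 measured, 30 had a lower mean with TCQA, beside 48.9% of all gene probe sets. The criterion was met by 9 in the lower direction (0.171% of all gene probe sets) and by 0 in the higher direction. After adjustment over all genes 0 passed limma (smallest adjusted p = 0.787). The 9 were Ier2, Junb, Ccn1, Npas4, Nr4a1, Fos, Btg2, Arc and Csrnp1. Ier2 and Csrnp1 were under the negative control median on all 4 arrays, and Npas4 and Btg2 on both TCQA arrays. With either filter on dim probe sets 7 of the list met the criterion, and without empirical Bayes moderation 1 did. Both filters keep genes that are bright in the control group alone, as Npas4 and Btg2 were, so the 7 is no check on dim signal. Fos, an AP-1 subunit, was at 8.23 and 8.10 with TCQA and at 10.01 and 8.95 in control, a difference of -1.32 (SE 0.35). Egr1, a zinc finger factor of the same class, was at 14.27 and 14.09 with TCQA and at 14.79 and 14.23 in control, with overlapping groups and a difference of -0.33 (SE 0.24). As for Dusp1, the highest of the 4 arrays was control replicate 1 in 27 of the 36. The list median was -0.33, and -0.14 without control replicate 1, when 6 genes met the criterion. These genes overlap the early genes already known to be low on the TCQA arrays and are no independent evidence.

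**Figure D4:**
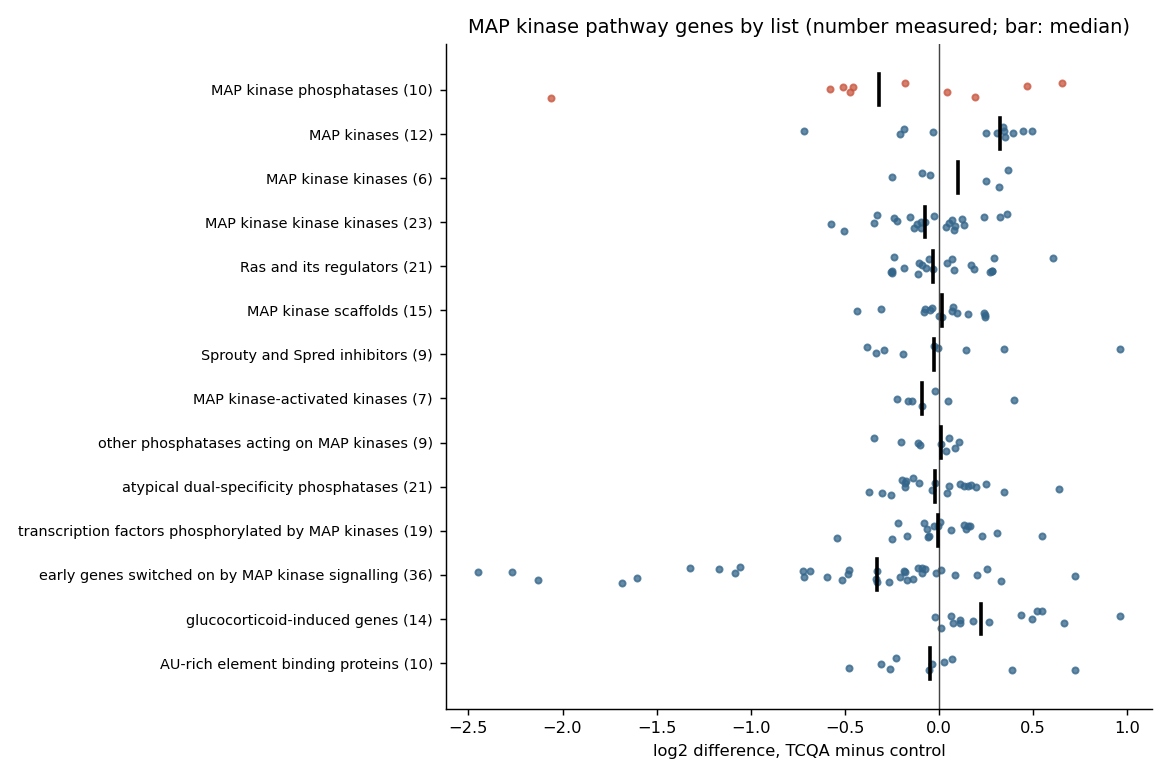
Log2 difference, TCQA minus control, of each measured gene in the phosphatase family (red) and in 13 lists of MAP kinase pathway genes (blue), with the number measured in parentheses and a bar at the list median. The phosphatases and the early genes have medians of -0.32 and -0.33 and the MAP kinases one of 0.32. The medians of scaffolds and of Sprouty and Spred inhibitors (with Errfi1 and Rasd1) are 0.02 and -0.02.

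Genes that glucocorticoids induce, among which Dusp1 is also known, formed a further list. Of 14 measured, 13 had a higher mean with TCQA, 3 had an unadjusted p under 0.05 (all higher, beside 3.38% of all gene probe sets), and 0 met the criterion or passed limma after adjustment. The median was 0.22, and 0.14 to 0.39 without each array in turn. Pdk4, a kinase that inhibits pyruvate dehydrogenase, was at 8.70 and 8.47 with TCQA and at 7.62 and 7.63 in control, a difference of 0.96 (SE 0.18, limma adjusted p = 0.787). Fkbp5, a co-chaperone of the receptor, was at 12.01 and 12.22 with TCQA and at 11.64 and 11.60 in control (difference 0.50, SE 0.18), and Zbtb16 differed by 0.52 (SE 0.20). Tsc22d3 differed by 0.18 (SE 0.23) with overlapping groups, and Per1 by -0.02 (SE 0.18). The direction of the median was the same under quantile normalization (0.21) and median centring (0.22).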

How the data were processed

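Per the labels' protocols, RNA from brain cortex was labelled with the WT PLUS kit and hybridized to Clariom S mouse arrays, and the deposited values are log2 signals that the authors made with SST-RMA in the Transcriptome Analysis Console (version 4.0.2). The algorithm adjusts and normalizes the arrays together, and each difference was taken between arrays within a probe set. Levels of different probe sets were set together for list averages, for the brightest probe set and for the cuts on dim signal. Such levels also depend on the probes. For the array annotation a genome build was not given in the sources used here. Of 28846 probe sets, 6640 controls were left out and 22206 entered the tests, of which 19572 had 1 symbol in the platform annotation, 0 had several and 2634 had none there. No detection filter was applied, so dim genes stayed in. The number of arrays limits the precision, with a median SE of 0.20 for a log2 difference.

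Groups came from the sample titles. TCQA was compared with control by limma 3.58.1 in R 4.3.3 (lmFit, eBayes, two-sided) over all gene probe sets, with Benjamini-Hochberg adjustment, and SEs and intervals are from this fit. The procedure was tested on simulated data. The members, the lists and the rule for naming genes were chosen with earlier results of these data known. The rule named all members, up to 4 genes of each list with the smallest p and any meeting the criterion, the 5 nearest profiles of Dusp1 and of the member with the next widest range, marker genes, and Fos, Egr1 and Ttr. Some genes that the rule names are not reported here. Beyond it, chosen after their values were seen, are Mapk14, Spred1, Tsc22d3 and Per1. The brightest probe set stood for a symbol. Of 219 listed pathway symbols 200 were measured. Promoter windows and gene symbols are from RefSeq, build GRCm38.p6. Tried as alternatives were no moderation, an intensity trend, quantile normalization, median centring, 2 filters on dim probe sets, the replicate number as a block, and leaving out each array. Same-numbered arrays had a correlation of deviations from the group means of 0.05, so the numbers were not taken to pair them.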

Additional observations from a re-analysis of the deposited data

How the results depend on the processing

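Dusp1, Dusp5, Dusp6 and Dusp8 kept their direction under all 11 alternatives, and Dusp2, Dusp4 and Dusp9 under the 9 that kept these dim genes. Dusp7 and Dusp16 changed sign under 1 alternative and Dusp10 under 2, each the loss of an array. The family median ranged from -0.49 (without TCQA replicate 1) to -0.07 (without TCQA replicate 2). The count of family members meeting the criterion was 1, and 0 without empirical Bayes moderation and 1 to 2 without each array. The 9 pathway genes meeting it became 1 without moderation and 6 to 14 without each array, the 14 without TCQA replicate 1. Over all gene probe sets 83 met the criterion, and 25 without moderation, 36 among the probe sets at or above the median, 42 among those above the negative controls, and 160 (without control replicate 1) to 291 (without TCQA replicate 2) without each array. Past the adjusted threshold there were 0, and 0 to 4 without each array, the 4 without TCQA replicate 1. The loss of moderation leaves 2 residual degrees of freedom, and the filters test fewer probe sets; the cause of the other moves was not tested. With the replicate number as a block, 92 probe sets, 1 family member and 9 pathway genes met the criterion and 0 passed adjustment; the family median was -0.32. Signal over background limits what can be said of Dusp2, Dusp4 and Dusp9, which were under the median negative control on every array.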

Other observations

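Atypical dual-specificity phosphatases and their relatives, which lack the MAP kinase-binding domain of the family, had a median difference of -0.02 over 21 measured genes. None met the criterion or passed limma after adjustment (0 each), and 1 of 21 had an unadjusted p under 0.05, beside 6.24% of all gene probe sets, so that nothing is read from the count. That gene was Dusp28, at 7.39 and 6.86 with TCQA and at 6.59 and 6.39 in control, a difference of 0.64 (SE 0.23) with 1 array above the median of the negative controls. These 21 genes were also counted above with the kinase cascade and its regulators, Dusp28 among the 4 higher there. Dusp19 differed by 0.34 (SE 0.18), with both TCQA arrays above both control arrays.

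Proteins that bind AU-rich elements, which shorten or lengthen the life of early gene mRNAs such as that of Dusp1, had a median difference of -0.05 over 10 measured genes, and 0 passed limma after adjustment. Zfp36, which promotes decay, was at 5.03 and 4.57 with TCQA and at 4.20 and 3.95 in control, all below the median of the negative controls, a difference of 0.72 (SE 0.23). Its relative Zfp36l1 was at 8.36 and 8.35 with TCQA and at 9.11 and 8.56 in control, a difference of -0.48 (SE 0.23).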
